A study of Homo sapiens with 4 samples.

Results

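Jurkat, an established line of human leukemic T cells, was compared between the state after combined treatment with JQ1 and PHA and the untreated state, with 1 library for each. JQ1 is a small molecule that displaces the BET proteins from acetylated chromatin, and PHA is a plant lectin that crosslinks T-cell surface glycoproteins and activates the cells. The JQ1 + PHA cells had received 0.5 μM JQ1 with 150 ng/ml PHA, and the cells called untreated here had received DMSO, the solvent of JQ1, which the other arm without JQ1 had also received. The libraries with 0.5 μM JQ1 alone and with DMSO + 150 ng/ml PHA served to show which genes either treatment had moved, so that 2 of the 4 libraries of the study make up the comparison. All treatments lasted 24 h. The cells are a single leukemia line, and RNA was read from bulk cultures.

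BET proteins bind acetylated histones at promoters and enhancers and help P-TEFb, the kinase that releases paused RNA polymerase II, to reach genes. Activation through the T-cell receptor (TCR) passes through the kinases LCK and ZAP70 to calcium and NFAT, to RAS and MAPK, and to protein kinase C and NF-κB, and ends in a wave of early response genes such as EGR1. The comparison asks what state the cells hold when activation is given under BET inhibition, and which genes stand again at the level of untreated cells.

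For each gene, values in the libraries are given below as FPKM (fragments per kilobase of gene model, scaled to the total of the library), always in the order DMSO, JQ1, DMSO + PHA and JQ1 + PHA. The log2 ratio of JQ1 + PHA to DMSO was taken after 0.1 was added to each FPKM, for the 11503 of 50868 genes whose FPKM averaged 1 or more across all 4 libraries, and a gene at least 2-fold away from DMSO is called higher or lower. A gene is called back at the DMSO level when the larger of the FPKM values, with 0.1 added, was at most 25% above the smaller, which is written as within 25%. Folds of single genes are ratios of the shares of counts, with 95% exact (Clopper-Pearson) intervals of their log2 that cover counting error only. With 1 library on each side there is no replicate, no test and no p-value. Where a library held 3 counts or fewer, the fold is a lower bound computed against 3 counts. Total counts were 18620954 to 19685401 per library, 20939 to 22118 genes had a count, and mitochondrial genes took 6.27% to 7.07% of counts, the most with JQ1 + PHA. All 14 markers of the T lineage were at an FPKM of at least 1 in both libraries compared, with a summed FPKM of 941 with DMSO and 831 with JQ1 + PHA. None of 10 myeloid, 7 NK or 8 erythroid and megakaryocyte markers reached 1, against 2 of 8 B-lineage markers (CD79A and BLK) and 1 of 10 epithelial and stromal markers (PECAM1). The summed FPKM of the B-lineage markers was 10.7 with DMSO and 3.40 with JQ1 + PHA, that of the epithelial and stromal markers 14.5 and 2.96, and those of the other 3 lists were under 1 in both. The part of these differences in the results was not tested.

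After both treatments, 600 genes (5.22% of those tested) stood at least 2-fold higher than in the DMSO library and 989 (8.60%) at least 2-fold lower. The interval excluded 0 for 583 (5.07%) and 970 (8.43%) of them. Among the 600 and 989 genes, 81 and 190 differed at least 4-fold, and 4673 genes (40.6%) lay within 25% of the DMSO level. The median log2 ratio over all tested genes was -0.02, and the middle 90% ran from -1.30 to 1.02. For comparison, JQ1 alone gave 600 higher and 995 lower genes (5.22% and 8.65%), and PHA alone gave 241 higher and 137 lower (2.10% and 1.19%), all against the same DMSO library. In bulk RNA, less RNA per cell and fewer cells of a type cannot be told apart. Protein-coding genes made up 69.7% of the higher and 78% of the lower genes, against 82.5% of all tested, and lncRNA genes 16.7% and 10.7%, against 7.39%. At the threshold, GNE lay just inside and IFI44 just outside on the lower side, both at a log2 ratio of -1.0, and ENSG00000213204 just inside and RBFOX2 just outside on the higher side, both at 1.0.

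**Figure D1:**
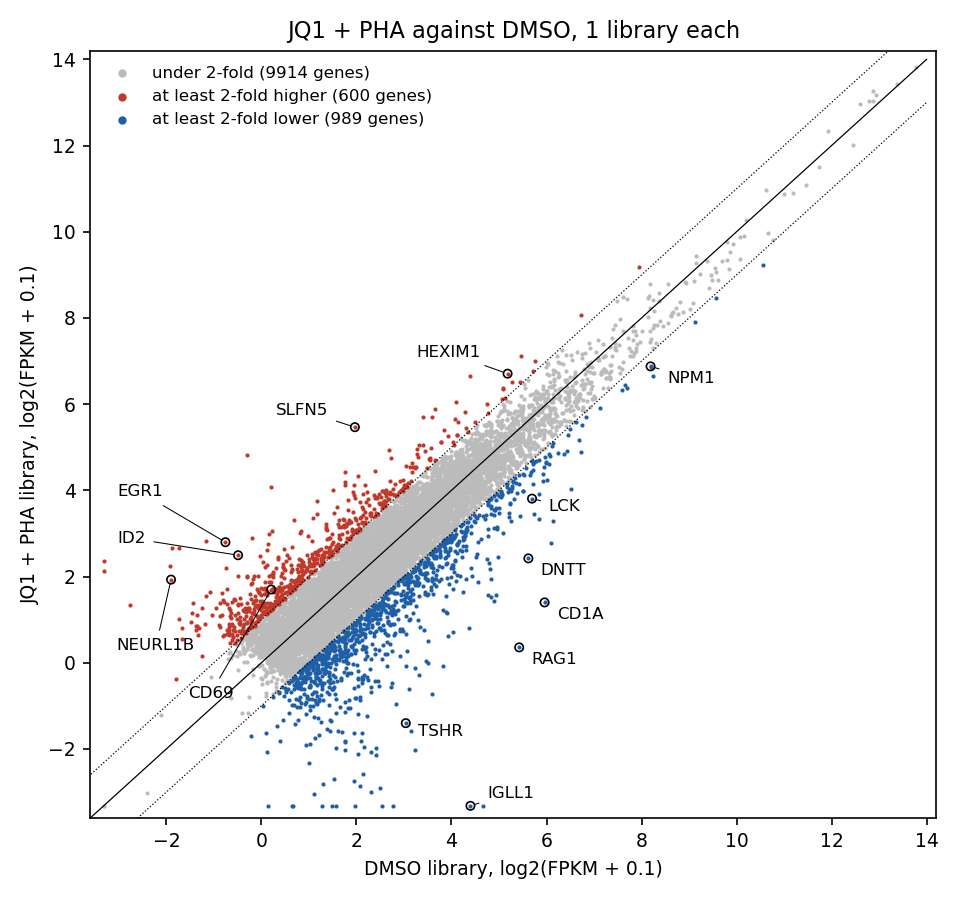
Each point is 1 of the 11503 genes, with log2(FPKM + 0.1) in the DMSO library on the horizontal axis and in the JQ1 + PHA library on the vertical axis. The solid line marks equal values and the dotted lines 2-fold. The 600 red points lie above the upper line and the 989 blue points below the lower line, with RAG1, CD1A and IGLL1 far below it.

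Genes of immature lymphoid cells were the list with the lowest median. Of 24 such genes 17 passed the filter, 10 (58.8%) were lower and 1 was higher, with a median log2 ratio of -1.42 against -1.53 for JQ1 alone and -0.36 for PHA alone. RAG1 (ENSG00000166349, chromosome 11, 36510709 to 36593156 on GRCh38, plus strand), a subunit of the recombinase that joins TCR gene segments, had FPKM values of 42.9, 3.93, 11.8 and 1.18. Each treatment alone lowered the level, and the combination gave the lowest value, 36.3-fold below DMSO (log2 ratio -5.18, interval -5.38 to -5.0). Its partner RAG2, an overlapping neighbour on the opposite strand, had 11.3, 2.19, 4.35 and 1.33. DNTT, the polymerase that adds bases at the joints, followed with 49.0, 7.19, 16.8 and 5.25, which is 9.33-fold lower after both treatments. RAG2 and DNTT were picked from the list after their values had been seen. In these 3 genes, the values ran in the same order, DMSO highest, then DMSO + PHA, JQ1 and JQ1 + PHA.

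The RefSeq promoter of RAG1 (GRCh38.p14, chr11:36510103-36510352, plus strand, 250 bases before the start) is shown because RAG1 had the most counts with DMSO among the 10 largest falls. RefSeq places this start upstream of the one in the files. Capitals mark its GC box (GGGCGG, or CCGCCC on the other strand).
RAG1: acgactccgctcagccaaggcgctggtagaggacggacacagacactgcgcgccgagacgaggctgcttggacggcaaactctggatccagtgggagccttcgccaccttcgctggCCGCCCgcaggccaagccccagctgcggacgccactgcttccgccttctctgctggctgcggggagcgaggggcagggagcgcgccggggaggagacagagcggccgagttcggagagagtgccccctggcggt

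IGLL1, a surrogate light chain of the pre-B cell receptor that was also read in these cells, had counts of 715, 6, 625 and 0, at least 236-fold lower than DMSO. CD1A, a lipid-presenting molecule of cortical thymocytes, had FPKM values of 62.1, 2.96, 55.2 and 2.54, which is 24.5-fold lower (log2 ratio -4.61, interval -4.92 to -4.32). CD1C had 29.6, 3.03, 42.2 and 2.58, 11.5-fold lower. In CD1A and CD1C the libraries with JQ1 were low and those without it high, whether or not PHA was given. DTX1, a Notch target, was the higher member of the list, with 4.02, 8.0, 7.06 and 9.25.

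Of 36 factors of the T lineage and of quiescence, 27 passed, 9 (33.3%) were higher, 1 was lower and 17 were within 2-fold, with a median log2 ratio of 0.65, against 0.48 with JQ1 alone and 0.32 with PHA alone. That median was 0.12 with no filter on low values and 0.022 without genes that overlap another. ID2, an inhibitor of E proteins, had FPKM values of 0.611, 3.73, 0.733 and 5.53, which is 9.05-fold higher after both treatments (log2 ratio 3.18, interval 2.76 to 3.63). ID3, of the same family, had 17.0, 61.3, 22.4 and 65.7, 3.87-fold higher. BTG1, an antiproliferative factor, had 2.91, 12, 4.18 and 12.2, 4.18-fold higher. All of these had their high values in the JQ1 libraries. KLF2, a transcription factor of resting T cells, had 0.288, 1.87, 1.2 and 1.71, and was 5.92-fold higher from 14 and 82 counts. ETS2 was the lower member, with 39.5, 14.4, 27.4 and 13.8. Among the genes with the largest rises outside the lists, SLFN5, a member of the Schlafen family, had 3.81, 42.8, 12.6 and 44.1, 11.6-fold higher (log2 ratio 3.53, interval 3.44 to 3.63), and NEURL1B, a ubiquitin ligase of the Neuralized family, had 0.167, 2.74, 2.40 and 3.70, 22.1-fold higher from 21 and 460 counts. TSPOAP1 and ABTB2 were 7.74-fold and 9.21-fold higher, and TP53INP1, which is on the lysosome and autophagy list, was 7.75-fold higher.

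**Figure D2:**
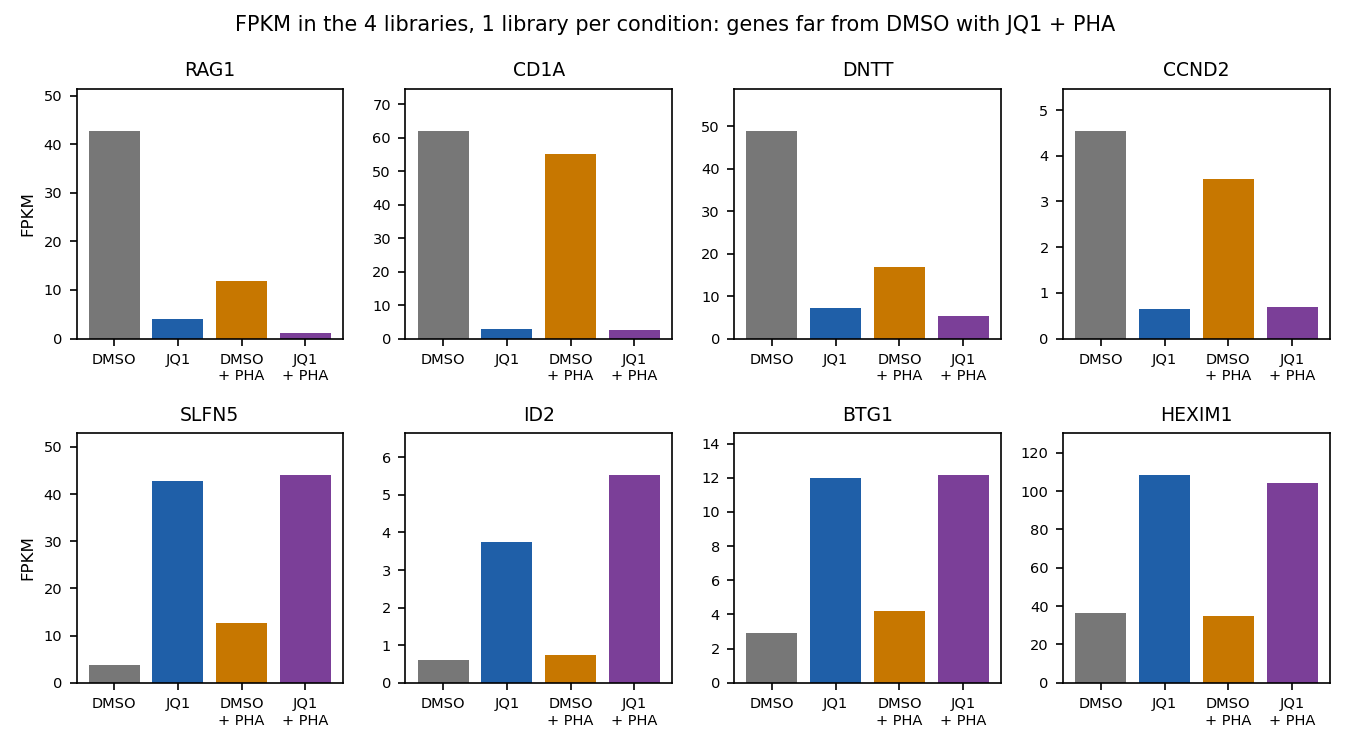
Bars give FPKM from 0 in each of the 4 libraries, 1 library per condition and so without error bars, for 4 genes far below and 4 genes far above the DMSO level after JQ1 + PHA. RAG1 and DNTT are lower in each treated library than with DMSO, and SLFN5, ID2, BTG1 and HEXIM1 have their high values in the JQ1 and JQ1 + PHA libraries. CCND2 and DNTT were chosen for the plot from their lists, DNTT after its values had been seen.

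Genes of the TCR complex and its proximal signalling, a list that also holds negative regulators, were lower more often than higher. Of 50 listed, 44 passed, of which 10 (22.7%) were lower and 4 (9.09%) higher, against 8.60% and 5.22% of all tested genes. The median log2 ratio was -0.30, against -0.49 with JQ1 alone and 0.28 with PHA alone. LCK (ENSG00000182866), the kinase that starts TCR signalling, had FPKM values of 51.7, 14.4, 47.7 and 13.9 and was 3.72-fold lower (log2 ratio -1.90, interval -1.96 to -1.83). GRAP2, an adaptor, had 14.9, 2.12, 13.7 and 2.13, 6.98-fold lower. CD2, an adhesion receptor, had 21.4, 4.31, 28.2 and 3.96, 5.41-fold lower. All 3 were low in both JQ1 libraries, which lay close together. The remaining of the 4 with the largest falls, SLA2, a negative regulator of TCR signalling, had 17.2, 4.06, 19.4 and 4.0. Of the CD3 chains, picked after their values had been seen, CD3E passed 2-fold with 67.3, 30.7, 62.0 and 27.7, and CD3D with 123, 73.2, 133 and 90.6 and CD3G with 19, 11.8, 20.6 and 12.8 did not.

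TRAC (ENSG00000277734), which encodes the constant region of the TCR α chain, had FPKM values of 16.7, 8.56, 221 and 50.1. JQ1 alone gave the lowest value and PHA alone the highest, and the combination stayed 2.99-fold above DMSO (log2 ratio 1.58, interval 1.44 to 1.73). PAG1, CBLB and FYN, which restrain or carry the proximal signal, were 2.67-fold, 2.35-fold and 2.16-fold higher. Downstream, the calcium and NFAT list had 21 of 26 genes that passed, 6 (28.6%) higher and 1 lower, with a median of 0.49. The calcium entry genes STIM1, with 4.11, 9.46, 7.68 and 10.1, and ORAI1, with 2.14, 5.20, 3.73 and 4.85, were both higher, and ORAI2, with 2.16, 0.851, 1.89 and 0.789, was lower. NFAT5 was high in the JQ1 + PHA library and not in the others, with 1.69, 1.52, 2.13 and 4.56, 2.70-fold above DMSO. A property of that 1 library and a response to the combination cannot be told apart. NFATC1, the gene of NFAT2, had a mean FPKM under 1 and values of 0.829, 0.493, 1.78 and 0.689, and the combined state was 1.2-fold lower than DMSO (log2 ratio -0.27, interval -0.53 to -0.01). Of the RAS, MAPK and protein kinase C list, 36 of 40 passed, with a median of 0.27. SOS2 and PRKCQ (5.56%) were higher and MAPK3 (2.78%) lower, against 5.22% and 8.60% of all tested genes. These shares of all tested genes are the background for every other list as well.

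EGR1 (ENSG00000120738, chromosome 5, 138465490 to 138469315 on GRCh38, plus strand), an early response zinc finger factor, carried the largest rise of the protein-coding genes that no other counted gene overlaps, apart from NEURL1B, by the ratio with 0.1 added. Its FPKM values were 0.491, 0.405, 39.9 and 6.85, from 29, 25, 2464 and 400 counts. With JQ1 alone it stood near the DMSO level, and with both treatments it was 13.9-fold above it (log2 ratio 3.80, interval 3.26 to 4.40), under the level with PHA alone. The RefSeq promoter of EGR1 (GRCh38.p14, chr5:138465229-138465478, plus strand) is shown because the gene kept part of the PHA response. Capitals mark its 2 CArG boxes, the serum response element motif, a search added after the data had been seen.
EGR1: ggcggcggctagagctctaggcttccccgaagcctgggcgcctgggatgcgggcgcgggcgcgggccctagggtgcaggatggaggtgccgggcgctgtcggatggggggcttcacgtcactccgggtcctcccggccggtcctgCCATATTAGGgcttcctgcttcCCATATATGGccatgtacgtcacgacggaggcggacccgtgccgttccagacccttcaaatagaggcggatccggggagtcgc

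Of 30 early response factors, 16 passed, 3 (18.8%) were higher and 3 (18.8%) lower, with a median log2 ratio of 0.58, against 0.02 with JQ1 alone and 0.45 with PHA alone. IER3, a stress response gene, had FPKM values of 1.0, 3.04, 5.07 and 6.67, 6.64-fold higher, with a higher value in each treated library. MYC, a growth regulator, was also highest after both treatments, with 0.629, 1.55, 0.918 and 2.72, 4.33-fold above DMSO (log2 ratio 2.11, interval 1.81 to 2.43). The AP-1 factors BATF, with 4.24, 1.23, 2.96 and 0.696, and BATF3, with 4.0, 0.775, 3.91 and 0.667, were 6.10-fold and 5.99-fold lower, and BHLHE40 was 3.36-fold lower. JUN had 2.57, 4.71, 1.69 and 4.11 and ended 1.60-fold higher (log2 ratio 0.68, interval 0.40 to 0.96), which is under 2-fold. EGR2, EGR3 and FOS did not pass the filter and are named after their values had been seen, with 2, 11 and 2 counts with DMSO and 34, 60 and 43 with both treatments.

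Among activation and costimulatory surface molecules, 12 of 23 passed, 6 (50%) were lower and 2 were higher, with a median of -1.17, against -0.98 with JQ1 alone and 0.87 with PHA alone. The median was -0.16 for members with a mean FPKM of at least 5 and -0.56 with no filter. TNFRSF8 (CD30) had FPKM values of 2.97, 0.136, 2.94 and 0.234, 12.7-fold lower, and TNFRSF4 (OX40) had 2.08, 0.149, 2.30 and 0.196, 10.6-fold lower. CD84, of the SLAM family, had 6.42, 1.13, 11.9 and 1.249, 5.14-fold lower after both treatments, with its highest value with PHA alone. CD69, an early activation marker, had 1.05, 0.766, 20.4 and 3.14 and stayed 2.99-fold higher (log2 ratio 1.58, interval 1.17 to 2.0), as did the tetraspanin CD82, with 3.84, 7.35, 10.8 and 8.29, 2.15-fold. CD40LG, the ligand by which helper T cells license B cells, had 4.40, 0.662, 47.2 and 2.18. Its value after both treatments was 2.02-fold under DMSO by counts, and -0.98 by the ratio with the pseudocount, just short of 2-fold.

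Of 18 inhibitory receptors and ligands only 3 passed the filter, and 0 were past 2-fold by the ratio with the pseudocount. PDCD1 (ENSG00000188389), the gene of PD-1, had FPKM values of 0.130, 0.0155, 5.53 and 0.328, from 8, 1, 356 and 20 counts. After both treatments it was 2.53-fold above DMSO by counts (log2 ratio 1.34, interval 0.09 to 2.73), a width that the few counts set. The ratio with the pseudocount was 0.90, which is under 2-fold. PDCD1 passed the filter only through its value in the DMSO + PHA library. HAVCR2, the gene of Tim-3, had 36 counts with DMSO and 27 with both treatments (log2 ratio -0.40, interval -1.18 to 0.36), which this depth could not resolve from 0. CD274, the gene of PD-L1, had 40 and 6 counts, 6.6-fold lower (log2 ratio -2.72, interval -4.25 to -1.47). IL2 had 0 counts in every library.

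Cytokines and their receptors had 16 of 40 genes that passed, 2 higher and 2 lower, with a median of 0.28. IL9R, with FPKM values of 5.03, 1.87, 6.79 and 1.5, and IL7R, with 1.68, 0.622, 1.66 and 0.550, were lower. IL2RB, the β chain of the IL-2 receptor, had 0.507, 1.06, 1.92 and 1.48, and IL6ST, the shared chain of the IL-6 family receptors, had 1.52, 3.28, 1.93 and 3.50, and both were higher. Homing receptors and integrins had 15 of 27 that passed, 4 lower and 2 higher, with a median of -0.47. PECAM1, an adhesion molecule, had 14, 1.65, 19.1 and 2.22 and was 6.30-fold lower. S1PR1, the receptor that draws T cells out of lymph nodes, had 0.967, 2.60, 2.07 and 3.12 and was 3.23-fold higher.

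Of 20 genes of BET proteins, P-TEFb and the 7SK particle that holds it inactive, 17 passed, 2 were higher and 0 lower, with a median of 0.21. HEXIM1, the inhibitor of P-TEFb, had FPKM values of 36.2, 109, 34.6 and 104 and was 2.88-fold higher (log2 ratio 1.53, interval 1.46 to 1.60), close to its level with JQ1 alone. SERTAD1, a cofactor on the list that belongs to none of these groups, had 0.478, 3.0, 1.2 and 2.54, 5.32-fold higher from 19 and 100 counts. Of 78 histone genes 19 passed the filter, 13 (68.4%) were higher and 0 lower, with a median of 1.35, against 1.35 with JQ1 alone and -0.16 with PHA alone. H3C8 had 0.198, 1.94, 0.126 and 1.92, 9.66-fold higher, and H2AC6 had 0.369, 2.30, 0.583 and 3.01, 8.15-fold higher. The filter averaged all 4 libraries, so members low with DMSO, such as H3C8 and H2AC6, passed it only through their values with JQ1. Such a filter favours higher members, and the list median ran from 0.87 to 1.5 over all settings. Many histone genes are near-identical copies, whose counts are uncertain because reads can be split between them. Of 38 Polycomb, DNA methylation and chromatin enzymes 37 passed, with 3 higher, 1 lower and a median of 0.17. The acetyltransferases KAT2B, with 2.46, 8.81, 3.26 and 8.47, and KAT2A, with 10.4, 3.32, 7.17 and 3.36, moved in opposite directions.

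Most genes of ribosome biogenesis were lower. All 35 listed genes passed, 24 (68.6%) were lower, 11 were within 2-fold and 0 were higher, with a median log2 ratio of -1.19, against -1.17 with JQ1 alone and -0.13 with PHA alone. NOP16 had FPKM values of 7.75, 1.75, 5.76 and 1.56, 4.95-fold lower, and RRS1 had 21.3, 5.45, 17.9 and 4.50, 4.73-fold lower. NPM1, an abundant nucleolar protein picked after its values had been seen, had 292, 124, 246 and 117, 2.49-fold lower. Cytosolic ribosomal protein genes lay less far below DMSO, with 84 of 88 that passed, 78 of them below 0, 4 past 2-fold (RPL17, RPL22L1, RPL21 and RPL34) and a median of -0.56. These genes have many processed pseudogenes, and their counts are uncertain for that reason. Of 13 mitochondrial genome genes 1 was lower, MT-ND6, with 755, 514, 438 and 352, and the median was 0.17.

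In metabolism, 22 of 27 amino acid response and transporter genes passed, 6 (27.3%) were lower and 2 higher, with a median of -0.77. PYCR1, of proline synthesis, had FPKM values of 3.80, 0.356, 2.89 and 0.463, 8.20-fold lower, and PSAT1, of serine synthesis, had 82.4, 31.3, 66.6 and 28.8, 2.86-fold lower. Of 32 cholesterol genes 28 passed, 5 (17.9%) were lower and 0 higher, with a median of -0.43. HMGCS1, an early enzyme of the pathway, had 60.5, 21.0, 91.0 and 18.5, and the combined state was 3.27-fold under DMSO and its highest value was with PHA alone. Of 24 glycolysis and hypoxia genes that passed, 0 were past 2-fold, and the median was -0.02. Of 36 lysosome and autophagy genes 30 passed, 4 were higher and 1 lower, with a median of 0.23. TP53INP1 had the highest log2 ratio of the list, 2.84, and NEU1, a lysosomal sialidase, had FPKM values of 1.27, 4.32, 2.67 and 4.79.

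Cell cycle and survival genes mostly stayed within 2-fold, as did most of all tested genes, of which 5.22% were higher and 8.60% lower. All 39 DNA replication genes passed, with 2 higher, 0 lower and a median of -0.07, and all 39 mitosis genes passed, with 0 past 2-fold and a median of 0.19. Of 28 G1 genes 23 passed, 3 (13%) were higher and 1 (4.35%) lower. CCND2, the D-type cyclin, had FPKM values of 4.55, 0.650, 3.48 and 0.701, 6.50-fold lower. The CDK inhibitors CDKN1B, with 13.7, 36.2, 14.8 and 34.7, and CDKN2D, with 4.11, 12.8, 3.99 and 13.2, were 2.54-fold and 3.20-fold higher. E2F3 was high in the JQ1 + PHA library and not in the others, with 3.38, 2.22, 4.10 and 9.41, and the limit given for NFAT5 holds here. Of 35 BCL2 family and death receptor genes 25 passed and 1 was past 2-fold, BMF, a pro-apoptotic BH3-only gene, with 0.321, 1.97, 0.277 and 2.31, 7.19-fold higher. BMF passed the filter only through its values with JQ1. The list median was 0.22, but -0.16 with a filter of 0.1 FPKM and -0.19 with no filter. Of 18 MAPK feedback genes 9 passed and 1 was higher, DUSP10, with 0.532, 1.89, 1.15 and 2.02.

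Among 34 interferon-stimulated genes 20 passed, 6 (30%) were lower and 1 higher, with a median of -0.35. GBP1, an interferon-induced GTPase, had FPKM values of 5.94, 1.02, 7.42 and 1.04, 5.70-fold lower, and OAS3, a sensor of double-stranded RNA, had 4.58, 0.915, 4.39 and 1.02, 4.49-fold lower. STAT2, a transcription factor of the same response, had 3.11, 7.57, 3.57 and 8.74, 2.81-fold higher. Of 21 MHC class I presentation genes 19 passed and 2 were lower, CALR, a chaperone of class I folding, with 208, 69.3, 206 and 82.7, and PSMB10, with 5.17, 2.39, 5.36 and 2.42.

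Which genes returned to the untreated level was read from those that a single treatment had moved at least 2-fold with an interval that excluded 0. As these comparisons share the DMSO library, an error in that library enters all of them. PHA alone had raised 224 genes (1.95% of those tested). After both treatments 35 of them (15.6%) were within 25% of DMSO, where 40.6% of all tested genes lay, 94 (42%) were still at least 2-fold higher, 59 lay between 25% and 2-fold higher, and 36 were past 25% under DMSO, 16 of these at least 2-fold. The 94 include genes that JQ1 alone also raised, such as SLFN5 and NEURL1B, and how many was not counted. They are therefore not all PHA rises kept under JQ1. The median log2 ratio of the 224 genes was 1.47 with PHA alone and 0.77 with both. For 24 of the 35 the interval of the ratio to DMSO included 0. PHA alone had lowered 119 genes (1.03%), of which 29 (24.4%) were back, 45 (37.8%) still at least 2-fold lower, 27 between and 18 past 25% the other way, with medians of -1.30 and -0.67.

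Of the 586 genes (5.09%) that JQ1 alone had raised, 23 (3.92%) were back at the DMSO level when PHA was given as well and 456 (77.8%) were still at least 2-fold higher, with medians of 1.327 and 1.247. Of the 980 (8.52%) that JQ1 alone had lowered, 21 (2.14%) were back and 750 (76.5%) still at least 2-fold lower, with medians of -1.37 and -1.31. Without the genes that overlap another gene with counts, the numbers back were 17 of 114 raised and 18 of 55 lowered by PHA, and 8 of 276 raised and 11 of 547 lowered by JQ1. As the filter averaged all 4 libraries, some genes passed it only through a library with a single treatment. With the filter taken over the JQ1 + PHA and DMSO libraries, the numbers back were 29, 31, 20 and 27 in the same order.

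**Figure D3:**
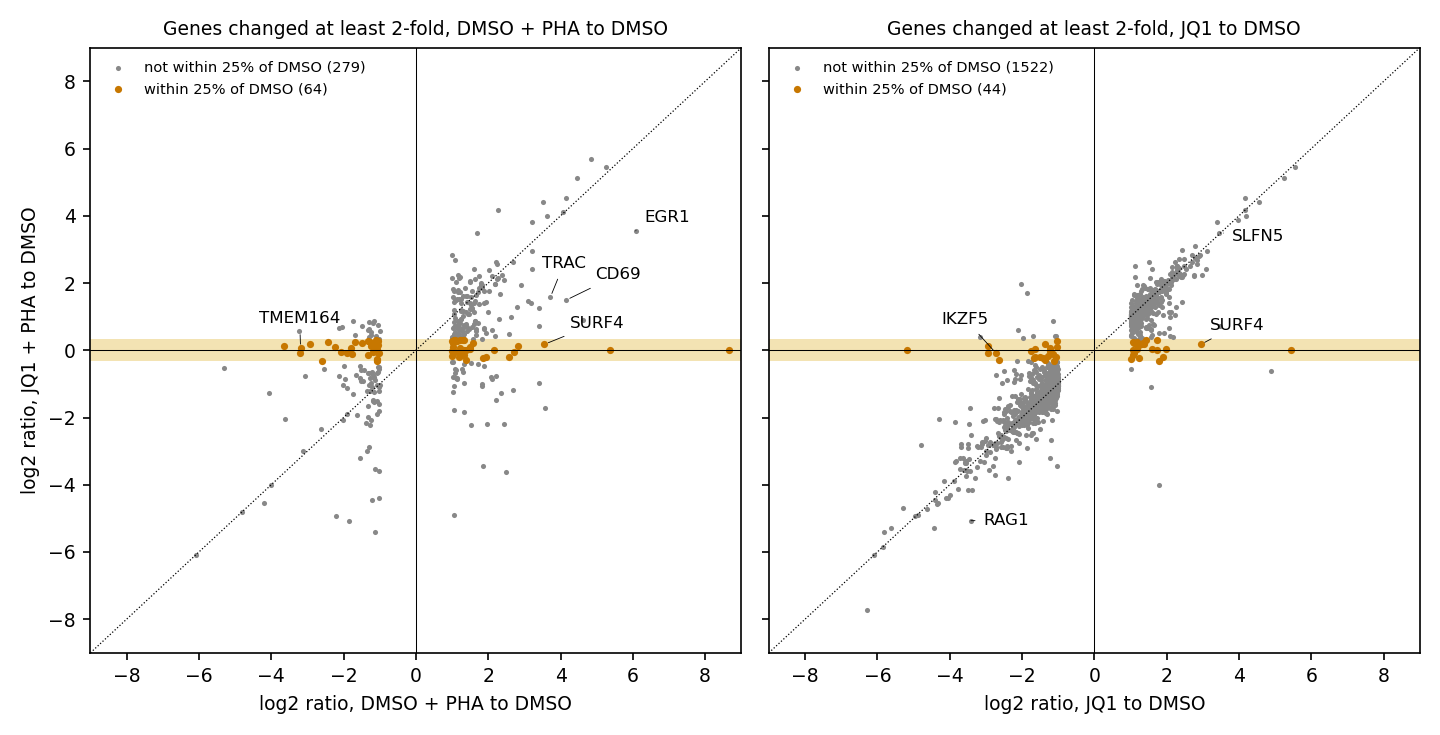
Points are genes changed at least 2-fold by PHA (left) or by JQ1 (right), with the log2 ratio of that treatment to DMSO on the horizontal axis and of JQ1 + PHA to DMSO on the vertical axis, both of FPKM + 0.1. The dotted diagonal marks equal ratios and the shaded band 25% either side of DMSO. The JQ1 genes lie along the diagonal with 44 in the band, and the PHA genes spread on both sides of it with 64 in the band.

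Of the 35 PHA-raised genes that stood again at the untreated level, those described here were largely picked for their known roles in T cells after their values had been seen, and whether such genes are common among the 35 was not tested. The 35 also hold SURF4, TPM4, a tropomyosin, JARID2, a Polycomb cofactor, and TOMM40L. CD28, the main costimulatory receptor, had FPKM values of 6.70, 5.36, 19.1 and 7.11, and its level after both treatments was 1.06-fold that of DMSO (log2 interval -0.03 to 0.20). The protein kinases C PRKCH, with 16.2, 13.5, 41.0 and 16.1, and PRKCE, with 0.785, 0.742, 3.84 and 0.798, had log2 ratios to DMSO with intervals from -0.07 to 0.06 and from -0.29 to 0.33. PRKCE passed the filter only through its value in the DMSO + PHA library. GPR174, a G protein-coupled receptor of lymphocytes, had 48.2, 38.7, 112 and 43.0. In these genes DMSO + PHA was the high library and the other 3 lay close together. A property of that 1 library and a response to PHA cannot be told apart. PTPN6, the phosphatase SHP-1, had 4.04, 2.85, 8.73 and 5.07, and TNFSF10, the death ligand TRAIL, had 1.24, 1.16, 2.65 and 1.33. PRKCE is named by its large change, and CD28, PRKCH, GPR174, PTPN6 and TNFSF10 were picked after their values had been seen. The TCR α variable segments TRAV17, with 25, 15, 192 and 27 counts, and TRAV18, with 61, 36, 245 and 53, were back as well, while TRAC was not.

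DUSP2 (ENSG00000158050), a MAPK phosphatase, returned from both sides, with FPKM values of 2.96, 0.867, 11.0 and 2.49. PHA alone gave the highest value and JQ1 alone the lowest, and both together gave 1.19-fold less than DMSO (log2 ratio -0.25, interval -0.62 to 0.12). Its RefSeq promoter (GRCh38.p14, chr2:96145441-96145690, minus strand) is shown for that reason, with 3 GC boxes in capitals.
DUSP2: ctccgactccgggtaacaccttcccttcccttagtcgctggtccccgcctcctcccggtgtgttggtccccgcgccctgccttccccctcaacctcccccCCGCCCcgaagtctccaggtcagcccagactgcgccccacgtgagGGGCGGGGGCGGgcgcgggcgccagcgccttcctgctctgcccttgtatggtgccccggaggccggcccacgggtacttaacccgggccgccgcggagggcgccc

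RefSeq held promoters for 27 of the 31 protein-coding genes that PHA raised and that were back, and for 7848 (82.7%) of all tested protein-coding genes. In the 250 bases before the start, on either strand, the letters GGAAA, the core of NFAT sites, were in 18 (66.7%) of the former and 54% of the latter, and GGGCGG was in 21 (77.8%) and 68.1%. The AP-1 letters TGACTCA were in 0 and 2.09%, and a CArG box was in 1 (3.70%) and 1.11%. A match of letters describes the sequence and is no site. For the genes that were higher or lower after both treatments fewer than 80% had a promoter, 78.9% and 78.3%, so their shares are not given.

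Other PHA-raised genes stayed at least 2-fold above the untreated level or passed below it. TRIM56, a ubiquitin ligase of antiviral signalling, had FPKM values of 1.51, 10.3, 10.2 and 9.89, so that either treatment or both gave about the same level. PTGER4, the prostaglandin E2 receptor EP4, had 3.22, 8.77, 28.1 and 9.13, so that its level with both treatments was close to that with JQ1 alone. In neither gene can a kept PHA rise be told apart from the rise with JQ1 alone. Of those that ended under DMSO, ATP9A, a lipid flippase, had 5.15, 0.372, 28.1 and 1.05, and GLDC, of glycine breakdown, had 1.58, 0.394, 8.48 and 0.593. CD27, a costimulatory receptor, had 0.758, 0.264, 3.89 and 0.209, from 22 counts with DMSO and 6 with both treatments. CST7, an inhibitor of cathepsins, had 50, 0, 111 and 0 counts, at least 16.5-fold lower. The JQ1 libraries were the low ones in all of the last 4, and all of these genes but CST7 were picked after their values had been seen.

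**Figure D4:**
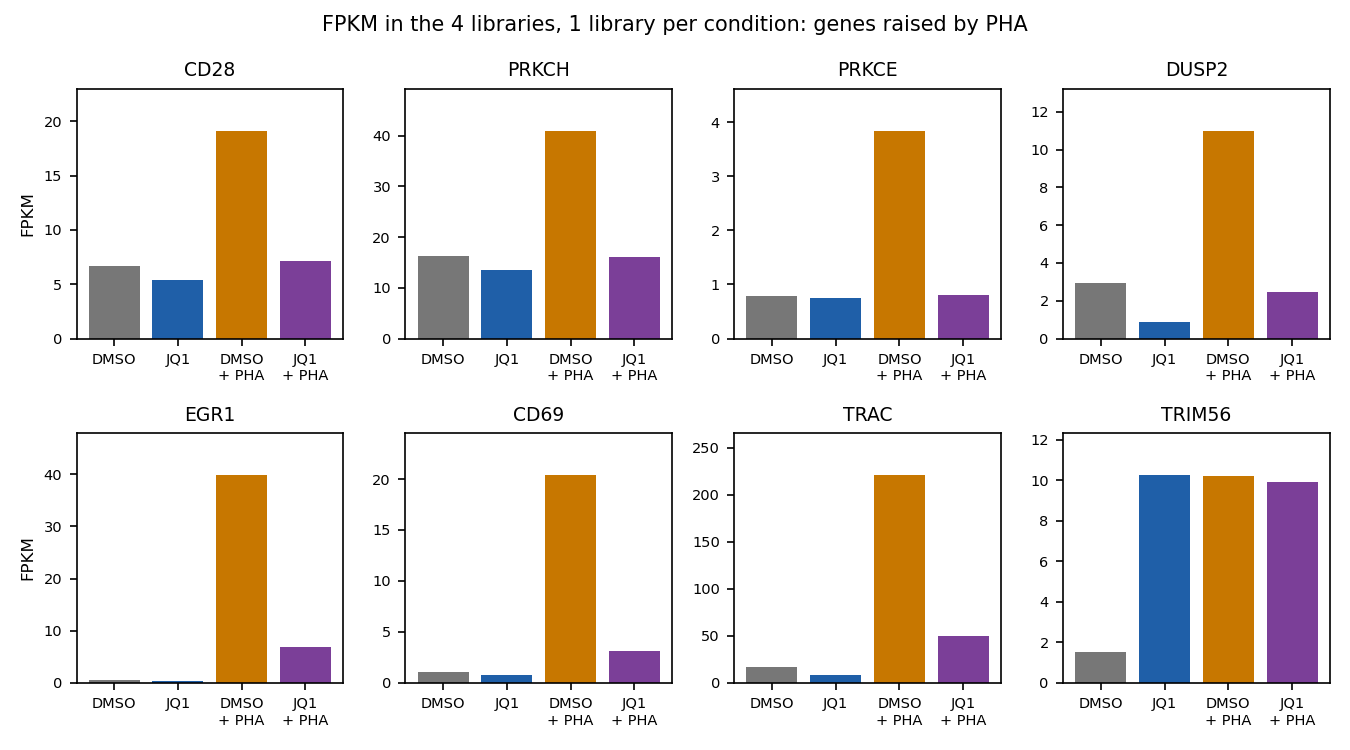
Bars give FPKM from 0 in each of the 4 libraries, 1 library per condition and so without error bars, for 8 genes that PHA raised. CD28, PRKCH, PRKCE and DUSP2 are within 25% of DMSO in the JQ1 + PHA library, EGR1, CD69 and TRAC lie between DMSO and DMSO + PHA, and TRIM56 is about equally high in the 3 treated libraries.

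Few genes that JQ1 had moved were back. IKZF5, a zinc finger factor of the Ikaros family, had FPKM values of 6.90, 0.964, 5.86 and 6.50 (log2 ratio of both treatments to DMSO -0.09, interval -0.20 to 0.03), and LPGAT1, an acyltransferase, had 8.87, 1.35, 8.14 and 7.27. NCBP2, of the cap-binding complex, had 12, 3.50, 16.7 and 11.7, and MAVS, the adaptor of RNA sensing, had 6.61, 2.40, 6.50 and 5.62. In all 4 the JQ1 library alone was low, so a property of that 1 library and a response to JQ1 cannot be told apart. TCF7, a factor of naive and memory T cells picked after its values had been seen, was likewise lowest with JQ1 alone, with 17.6, 8.47, 19.2 and 21.4. Of the genes that JQ1 raised, TAB2, a TAK1 adaptor, had 3.24, 11.0, 3.18 and 4.01, and RNF185, a ubiquitin ligase, had 1.34, 4.89, 1.34 and 1.05. In both the JQ1 library alone was high, and the same limit holds.

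Of the genes that PHA lowered and that were back, TMOD2, an actin-capping protein, had FPKM values of 6.30, 7.21, 1.1 and 7.48. SLC35F6 had 2.80, 3.21, 0.734 and 2.91, and ZNF672 had 4.21, 4.65, 1.43 and 4.91. SEC61A1, of the translocon, and the adaptor CRK, both picked after their values had been seen, had 22.5, 23.3, 10.7 and 23.1, and 12.3, 14.4, 5.95 and 13.8. In each the DMSO + PHA library stood apart and the other 3 were close, so a property of that 1 library and a response to PHA cannot be told apart.

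Some of the genes with the largest ratios overlap others, and for them reads could be counted on either gene. BIVM-ERCC5, a readthrough gene, had 1978, 2077, 1909 and 0 counts, while ERCC5, inside it, had 1187, 1295, 1399 and 2710. BLOC1S5-TXNDC5 had 0, 14, 2424 and 0 counts, and TXNDC5, inside it, had 2775, 1320, 163 and 1144, so that the sums, 2775, 1334, 2587 and 1144, differed less than either gene. UPK3BL1 had 0, 121, 99 and 106 counts, and the overlapping ENSG00000267645 had 91, 1, 5 and 1, which sum to 91, 122, 104 and 107. ENSG00000256349, with 0, 0, 195 and 333, and ENSG00000277971, with 2, 59, 15 and 56, each overlap a gene with more counts than their own. IFTAP, with 325, 3, 67 and 3 counts, overlaps RAG2. RIMBP3B, with 312, 259, 0 and 0, belongs to a family of near-identical copies. Their ratios are therefore uncertain. Among the lower genes with the largest ratios, TSHR had FPKM values of 8.11, 0.288, 3.44 and 0.278 and was 29.2-fold lower. It overlaps CEP128, which had 1412, 876, 847 and 806 counts. SERPINB2 had 382, 0, 252 and 2 counts and BMP10 had 166, 0, 78 and 1, at least 126-fold and 54.8-fold lower. Of all tested genes 46.5% overlapped a gene with counts, against 50.8% of those higher and 45.6% of those lower.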

How the data were processed

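RNA-seq had been done on 4 Jurkat cultures, 1 library per condition, and the values used are the gene counts and FPKM that the authors deposited for each library. Per the study's methods, reads were aligned to GRCh38 with Hisat2 and expressed as FPKM, whereas the submitters' processing notes list TopHat2 2.0.9 and Cufflinks 2.1.1 without a role. The counting program, its strand setting and the annotation release are not given in the sources used here. The deposited counts are whole reads per gene, and the deposited FPKM are the counts divided by the length of the gene and the total of the library, as checked on the 12689 genes whose counts reached 20 in all libraries (largest relative spread of the implied length 4.65e-05). Tables were joined by Ensembl identifier. Of 50868 identifiers, 49659 were in GENCODE release 44, which gave biotype and overlap.

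Total counts were 18815190 (DMSO), 19677571 (JQ1), 19685401 (DMSO + PHA) and 18620954 (JQ1 + PHA). Ratios of FPKM used a pseudocount of 0.1, which understates the change of low genes, and a filter of a mean FPKM of at least 1. A gene was called changed by a single treatment at 2-fold with a 95% exact (Clopper-Pearson) interval that excluded 0, and back within 25%. Counts are not independent molecules, so intervals and the floor of 3 counts cover counting error only. Conditions were not tested against each other, and the steps were tested on simulated data.

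The members and the gene lists were chosen with earlier results of these data known. The genes named are the 10 protein-coding genes with the largest rise and fall past 2-fold with an interval that excluded 0, the 8 protein-coding genes with the largest single-treatment change among those back, up to 4 members of a list in each direction, and PDCD1, HAVCR2, CD274, NFATC1, JUN, HEXIM1, MYC, EGR1, CD69, TRAC, IL2, LCK and CD40LG. Any other gene was picked after its values had been seen. Some genes that this rule names are not reported here. Alternatives were the pseudocount, the filter, the scaling, the thresholds and a restriction to protein-coding genes. Leaving out overlapping genes or genes with 3 counts or fewer in any library was added after the data had been seen. Promoters were read from RefSeq (GRCh38.p14). Analyses ran in Python (3.11.15) using pandas (2.3.3), numpy (2.4.6), matplotlib (3.10.9) and scipy (1.17.1). Scaling factors came from DESeq2 (1.42.0) and edgeR (4.0.16) under R (4.3.3), which were used for nothing else.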

Additional observations from a re-analysis of the deposited data

Results flagged for a closer look

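In 10 of the 95 genes that a single treatment had moved and that were back at the DMSO level, and in 23 of all 11503 tested, the log2 ratio for PHA in DMSO-treated cells (DMSO + PHA to DMSO) and in JQ1-treated cells (JQ1 + PHA to JQ1) had opposite signs, both at least 2-fold with intervals that excluded 0. The difference between them was not tested, as each condition had 1 library. The values follow for the 7 that the rule for named genes holds. SURF4, a cargo receptor of the endoplasmic reticulum, had ratios of 3.56 and -2.77, from FPKM values of 3.38, 26.9, 40.9 and 3.84 in the order DMSO, JQ1, DMSO + PHA and JQ1 + PHA. TRIM32, a ubiquitin ligase, had 2.59 and -2.09, MRFAP1 had 1.49 and -1.57, and GOPC, a Golgi protein, had 1.48 and -1.93. These 4 were high with either treatment and near the DMSO level with both. TMEM164 went the other way, with -3.19 and 1.30, from FPKM values of 6.18, 2.56, 0.589 and 6.44. BLOC1S5-TXNDC5 had 8.67 and -1.74, and its counts of 0, 14, 2424 and 0 stood beside 2775, 1320, 163 and 1144 for TXNDC5, which overlaps it. ENSG00000167774 had 5.37 and -5.43, from 0, 48, 46 and 0 counts, and overlaps ELAVL1 and NDUFA7, which had more counts in every library. GOPC overlaps DCBLD1, with 121 to 201 counts, and TRIM32 overlaps ASTN2, with 89 to 130. SURF4, MRFAP1 and TMEM164 overlap no gene with counts. What the overlap, or the assignment of reads to genes in any of the 7, contributes was not tested.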

How the results depend on the processing

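With 1 library per condition no replicate could be left out, and depth limits genes with few counts such as PDCD1. No paired analysis was possible because each condition had 1 library. In the order higher, lower, back after PHA raised, PHA lowered, JQ1 raised and JQ1 lowered, the counts were 600, 989, 35, 29, 23 and 21. They were 1481, 2250, 106, 45, 53 and 59 with a filter of 0.1 FPKM, 203, 377, 15, 8, 8 and 10 with one of 5 FPKM, 1920, 2798, 142, 46, 62 and 59 with no filter, and 295, 538, 17, 18, 8 and 11 without overlapping genes. A pseudocount of 1, which by construction draws the ratios of low genes towards 0, gave 299 higher, 579 lower and 13 that PHA lowered and were back, which protein-coding genes alone made 19. At 1.5-fold 1720 were higher and 2241 lower, and at 4-fold 81 and 190. In the last 4 positions, back within 1.1-fold gave 16, 14, 9 and 10, back within 1.5-fold gave 65, 44, 43 and 57, and changed at 4-fold gave 7, 8, 2 and 5. Apart from those with a pseudocount of 1, these follow from the threshold or the genes kept. List medians changed sign for cytokines (-0.041) and BCL2 genes (-0.16) with a filter of 0.1 FPKM, for BCL2 genes (-0.19) with no filter, and without overlapping genes for inhibitory receptors (0.21), G1 genes (-0.029) and MHC class I (0.58); the cause was not tested. Without a change of sign, medians moved by over 1.5 times for T-lineage factors (0.022 to 0.71 over all settings), activation molecules (-1.18 to -0.16), early response factors (0.32 to 0.77), calcium and NFAT (0.29 to 0.55), immature lymphoid genes (-2.47 to -1.19), histones (0.87 to 1.5), interferon-stimulated genes (-0.67 to -0.18), homing receptors (-0.59 to -0.31), BET and P-TEFb (0.19 to 0.43), lysosome (0.17 to 0.45), MAPK feedback (-0.24 to -0.091), DNA replication (-0.079 to -0.018) and mitochondrial genes (0.058 to 0.23), and the glycolysis median lay on both sides of 0 (-0.11 to 0.16). Beside the 6 sign changes given first, 298 medians over lists and settings lay within a log2 ratio of 0.1 of the main value and 45 did not. Ratios of named genes lay inside their main counting interval in 764 cases and outside it in 118, with 0 reversed. Higher genes made up 29.9% to 43.4% of the calls, against 37.8%.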
